A study of Mus musculus with 8 samples.

Results

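The 8 genes described here, Ciita, H2-Aa, H2-Ab1, H2-Eb1, Cd74, H2-DMa, H2-DMb1 and H2-DMb2, encode the MHC class II antigen presentation machinery of the mouse and its master regulator. They were taken by symbol from the 55414 genes of the count table, with their TG and WT values in these same libraries already known, so the TG against WT values are given as a description and without a test. All 8 were found in the table, and 7 passed the filter on low counts and were among the 11929 genes tested. H2-DMb2 did not pass.

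The RNA came from Paneth cells, which sit at the crypt base of the small intestine and secrete antimicrobial granules. They were purified by FACS from mouse small intestinal suspensions, and polyadenylated RNA was sequenced. There were 8 libraries, 4 of genotype DT TG (transgenic, with diphtheria toxin expressed in Paneth cells, called TG) and 4 of wild type (WT). The study describes its sorted samples as coming from individual C57BL/6J mice. Its overview of data sets describes this series as profiling cells that were purified after depletion of (mature) Paneth cells. Whether the sorted TG cells matched the WT cells in maturity was not tested. The sources used here give neither the promoter that drives the toxin nor the age or treatment of these mice. Total counts per library were 13107397 to 16218434. Levels are CPM, counts scaled to the size of the library, here with TMM factors, and log2 fold changes are TG over WT with their standard error (SE). In bulk RNA, fewer cells that express a gene and less of its RNA per cell cannot be told apart.

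MHC class II molecules are heterodimers of an alpha and a beta chain that show peptides from endocytosed protein to CD4 T cells. The invariant chain, Cd74, guides new dimers to endosomes and blocks their groove, and H2-DM exchanges the last invariant chain fragment for a peptide. Ciita is the coactivator that switches the family on; it does not bind DNA itself but docks on factors bound to the X and Y boxes of class II promoters. Professional antigen presenting cells make class II all the time, whereas epithelial cells of the gut make it in response to interferon gamma.

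Promoter sequences are shown first because the X and Y boxes are the DNA feature that these genes are known to share. RefSeq promoters on GRCm38.p6, reaching from 250 bases before to 50 bases after each start, were at hand for 5 of the 8 genes, namely H2-Aa, H2-Eb1, H2-DMa, H2-DMb1 and H2-DMb2. The 130 bases before the start of 4 of them follow, read 5′ to 3′ on the strand of the gene. They lie at chr17:34287824-34287953 on the minus strand for H2-Aa, and on the plus strand at chr17:34305737-34305866 for H2-Eb1, chr17:34153061-34153190 for H2-DMb1 and chr17:34145119-34145248 for H2-DMb2. Capitals mark the Y box (GATTGG, or CCAATC where it is on the other strand) and the X box core (ACNGATG), which in H2-Eb1 overlaps an RFX site (AGCAAC).
H2-Aa: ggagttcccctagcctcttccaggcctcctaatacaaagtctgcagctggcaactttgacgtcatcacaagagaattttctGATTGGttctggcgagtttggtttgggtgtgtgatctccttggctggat
H2-Eb1: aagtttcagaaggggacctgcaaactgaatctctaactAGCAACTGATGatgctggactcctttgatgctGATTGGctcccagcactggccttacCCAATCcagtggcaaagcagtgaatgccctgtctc
H2-DMb1: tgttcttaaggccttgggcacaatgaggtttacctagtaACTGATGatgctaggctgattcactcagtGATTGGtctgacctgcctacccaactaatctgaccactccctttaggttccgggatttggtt
H2-DMb2: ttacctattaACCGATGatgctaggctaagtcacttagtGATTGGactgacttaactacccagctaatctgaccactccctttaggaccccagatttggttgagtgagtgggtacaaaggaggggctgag

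With both strands searched, a Y box was present in 5 of the 5 promoters, against 16.1% of all 32851 promoters of the same length. The X box core was present in 4 of 5, against 9.85%. In H2-Aa the only match to these letters lay far upstream of the stretch shown and on the opposite strand. An X box that departs from the letters ACNGATG would be missed by this search, in H2-Aa as elsewhere. An X box core followed on the same strand by a Y box after 5 to 40 bases, a spacing chosen after the sequences were seen, occurred in H2-Eb1 (21 bases between them), H2-DMb1 (22) and H2-DMb2 (22), and in 20 promoters in all, 0.0609% of the table. The RFX site was found in 1 of the 5 promoters (14.8% of all), the STAT element TTCNNNGAA in 1 (8.30%) and the IRF element GAAANNGAA in 0 (8.56%). These are matches of letters and not evidence of binding. H2-DMb1 and H2-DMb2 hold the same pair of boxes, and of these genes only H2-DMb1 had more than 3 counts in any library.

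Ciita (ENSMUSG00000022504) lies on chromosome 16 of GRCm39, at bases 10297923 to 10347694 on the plus strand. Its level was 3.06, 1.83, 6.09 and 1.06 CPM in TG 1 to TG 4, and 9.42, 9.60, 18.9 and 6.62 CPM in WT 1 to WT 4. The groups did not overlap, although the highest TG library (TG 3) came close to the lowest WT library (WT 4). The TG mean of 3.01 ± 2.21 CPM compares with a WT mean of 11.1 ± 5.36 CPM (SD, n = 4 each), and the log2 fold change was −1.85 ± 0.54 (SE). These levels rest on 14 to 108 counts per TG library and 89 to 283 per WT library. The exons of Ciita overlap those of Dexi, a gene on the opposite strand, over 633 bases, and whether the counting used the strand is not stated. Dexi, which is no member of the family, had a log2 fold change of −0.30 ± 0.12 (edgeR quasi-likelihood test, adjusted p = 0.0829).

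The classical chains are the alpha chain H2-Aa and the beta chains H2-Ab1 and H2-Eb1. Their genes sit next to each other on chromosome 17 (GRCm39), with H2-Ab1 at 34476663 to 34488393 on the plus strand, H2-Aa at 34493404 to 34506798 on the minus strand and H2-Eb1 at 34504236 to 34535648 on the plus strand. Each was lower in all 4 TG libraries than in any WT library.
H2-Aa (ENSMUSG00000036594), the alpha chain of the I-A molecule, stood at 15.6, 11.5, 31.9 and 3.34 CPM in TG 1 to TG 4 and at 69.1, 65.7, 112.4 and 61.1 CPM in WT 1 to WT 4. The log2 fold change was −2.28 ± 0.60 (SE), the largest of the family in the fit of all 8 libraries, with H2-DMb1 (−2.25 ± 0.40) close to it. Without TG 2, H2-DMb1 had the larger change (−2.21 against −2.16). WT 3 stood well above the other WT libraries, which lay close together, and TG 4 was far below all others.
H2-Ab1 (ENSMUSG00000073421), the beta chain that pairs with H2-Aa, stood at 31.2, 21.6, 63.0 and 13.1 CPM in TG and at 114.7, 90.2, 158.4 and 88.5 CPM in WT, with a log2 fold change of −1.80 ± 0.51. H2-Eb1 (ENSMUSG00000060586), the beta chain of the I-E molecule, stood at 24.1, 14.7, 40.5 and 6.76 CPM in TG and at 75.1, 63.2, 118.1 and 61.0 CPM in WT, with a log2 fold change of −1.87 ± 0.54. For both, TG 3 was the highest and TG 4 the lowest of the TG libraries, as for H2-Aa. The exons of H2-Aa and H2-Eb1 overlap on opposite strands over 118 bases.
The alpha partner of H2-Eb1, H2-Ea, had 0 counts in all 8 libraries.

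Cd74 (ENSMUSG00000024610), the invariant chain, was the most abundant transcript of the family. It lies on chromosome 18 of GRCm39, at bases 60936899 to 60945731 on the plus strand. Its counts were 1525, 1046, 2976 and 401 in TG 1 to TG 4 and 4018, 3932, 6858 and 3528 in WT 1 to WT 4. In CPM this was 95.3, 73.5, 167.8 and 30.5 in TG, with a mean of 91.8 ± 57.4, and 320.8, 273.5, 458.5 and 262.3 in WT, with a mean of 328.8 ± 90.1 (SD, n = 4 each). The groups did not overlap, and the log2 fold change was −1.84 ± 0.52 (SE).

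H2-DM is the peptide editor of the class II pathway, a dimer of H2-DMa with a beta chain from H2-DMb1 or H2-DMb2. The 3 genes lie together on the plus strand of chromosome 17 (GRCm39), H2-DMa at 34338515 to 34358958, H2-DMb2 at 34362197 to 34370529 and H2-DMb1 at 34372046 to 34379204. H2-DMa (ENSMUSG00000037649) stood at 7.00, 4.99, 9.13 and 2.05 CPM in TG 1 to TG 4 and at 13.4, 11.8, 23.1 and 9.00 CPM in WT 1 to WT 4, with a log2 fold change of −1.29 ± 0.45 (SE). It was the 1 gene of the 7 tested whose groups overlapped, since TG 3 lay just above WT 4. Its exons overlap those of Brd2 on the opposite strand over 510 bases. Brd2, a chromatin reader, had a mean of 138.4 ± 6.64 CPM in TG and 127.1 ± 7.71 CPM in WT (SD, n = 4 each).
H2-DMb1 (ENSMUSG00000079547) stood at 4.37, 4.15, 7.84 and 1.37 CPM in TG and at 20.9, 23.2, 26.3 and 16.1 CPM in WT. The gap between the groups was wide relative to the spread within them, and the log2 fold change was −2.25 ± 0.40 (SE).
H2-DMb2 (ENSMUSG00000037548) had 0 counts in every TG library and 3, 1, 1 and 0 counts in WT 1 to WT 4. A count of 0 allows up to 3 counts, or 0.169 to 0.228 CPM in the TG libraries, so no difference was detectable at this depth and no fold is given. Its annotated transcript shares 254 windows of 75 bases with that of H2-DMb1, which is 19.1% of the windows of H2-DMb1, and reads from these stretches could have been assigned to either gene or dropped.

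**Figure D1:**
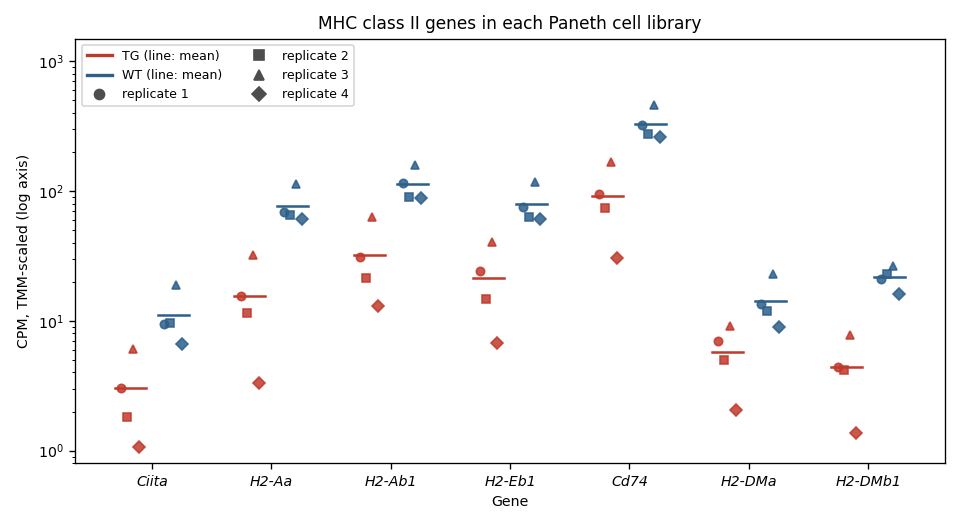
CPM (TMM-scaled, log axis) of the 7 tested class II genes in each library, with TG in red, WT in blue, one marker shape per replicate number and a horizontal line at each group mean. H2-DMa is the 1 gene whose TG and WT points overlap, TG 4 is the lowest library for every gene, and WT 3 is the highest for every gene.

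In the fit across all 11929 genes, 2 of the 7 tested genes, H2-Aa and H2-DMb1, were called lower in TG by edgeR (threshold 0.05 on the adjusted p), where 9.65% of all tested genes were. Nothing is read from that count, because the genes were chosen on this contrast. It depended on single libraries, being 6 without TG 3, 3 without TG 4 and 1 without any 1 of the other libraries. Of the 7 genes, 6 had groups that did not overlap, against 12.0% of all tested genes that did not overlap and were lower in TG. The median log2 fold change over the 7 was −1.85, and that over all tested genes was 0.01. The largest and the smallest fold changes of the family in this fit, those of H2-Aa and H2-DMa, correspond to levels 4.86-fold and 2.44-fold lower in TG.

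Summed over the 8 genes, class II transcripts made up 180.7, 132.3, 326.2 and 58.1 CPM in TG 1 to TG 4 and 623.8, 537.2, 915.7 and 504.6 CPM in WT 1 to WT 4. The TG libraries spread over 5.62-fold and the WT libraries over 1.81-fold. The share of Cd74 in the family's counts was 53.0% ± 1.78 for TG against 51.1% ± 0.815 for WT (SD, n = 4 each), and that of Ciita was 1.69% ± 0.221 against 1.67% ± 0.329. The mix of the family was thus close between the groups for its most abundant transcript and for its regulator, while the totals differed.
The alpha chain was scarcer relative to its beta partner in TG. The ratio of H2-Aa to H2-Ab1 counts was 0.256 to 0.534 in TG and 0.603 to 0.728 in WT, with no overlap. The chains of H2-DM also shifted against each other, with a ratio of H2-DMb1 to H2-DMa of 0.745 ± 0.116 in TG and 1.61 ± 0.356 in WT, again with no overlap. The ratios of Cd74, H2-Eb1, H2-DMa and H2-DMb1 to H2-Ab1, and of Ciita to Cd74, overlapped between the groups. These ratios come from the contrast that chose the genes and were not tested.

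Levels of different genes can be set side by side only per length. In CPM per kilobase of the canonical transcript, the WT order was Cd74 (229.8 ± 63.0), H2-Ab1 (93.2 ± 26.9), H2-Aa (68.3 ± 21.1), H2-Eb1 (46.8 ± 15.6), H2-DMb1 (15.4 ± 3.06), H2-DMa (12.5 ± 5.33) and Ciita (1.49 ± 0.717), each as mean ± SD over 4 libraries. The ranges of H2-Ab1 and H2-Aa, of H2-Aa and H2-Eb1, and of H2-DMb1 and H2-DMa overlapped. H2-DMb1 was above H2-DMa in 3 of the 4 WT libraries.
In TG the order began with Cd74 (64.1 ± 40.1) and H2-Ab1 (26.6 ± 18.0) and ended with Ciita (0.402 ± 0.296), but H2-DMa (5.03 ± 2.62) stood above H2-DMb1 (3.16 ± 1.89) in all 4 libraries. H2-Aa and H2-Eb1 did not separate in TG, where each was the higher one in 2 of 4 libraries.

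The libraries of a group also differed among themselves, and this spread was not used to choose the genes. After the group mean had been subtracted from log2 CPM, the 7 genes moved together from library to library. The Pearson correlation of these deviations over the 8 libraries was 0.895 to 0.996 in the 21 pairs of genes, with a median of 0.962. The points share their libraries, and so any feature of a library that touches all class II transcripts enters every pair.
With Ciita as the reference, r was 0.969 for H2-Ab1, 0.964 for H2-Eb1, 0.953 for H2-DMa, 0.946 for Cd74, 0.931 for H2-Aa and 0.895 for H2-DMb1. The exact permutation of libraries within groups (two-sided, 576 arrangements, n = 8) gave p = 0.00347 for H2-Ab1, H2-Eb1, Cd74 and H2-Aa, 0.00694 for H2-DMa and 0.0122 for H2-DMb1, where the smallest p it can give is 0.00174. Spearman's rho was 1 for H2-DMb1 (exact permutation p = 0.00347) and 0.9 for each of the other 5 (p = 0.0243). None of these passed the adjustment over 11928 genes, with exact permutation p adjusted by Benjamini-Hochberg of 0.672 to 0.690. No gene at all passed it. With a smallest p of 0.00174, passing would need a large number of genes tied at or near that floor. Failing the adjustment therefore says little about any gene here. Of the 11928 genes, 779 had an unadjusted exact p below 0.05, where chance alone gives a share of about 0.05.
As a description, r was above 0.9 for 5 of the 6 genes, and for 0.344% of all genes compared with Ciita. The 2 libraries farthest from the median of Ciita were TG 3 and TG 4. Without them, r was 0.957 for Cd74, 0.974 for H2-Aa, 0.931 for H2-Ab1, 0.949 for H2-Eb1, 0.986 for H2-DMa and 0.857 for H2-DMb1, so the relation did not rest on that pair. The slope was 1.09 log2 units per log2 unit of Ciita for H2-Aa and 0.786 to 0.950 for the other 5.

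**Figure D2:**
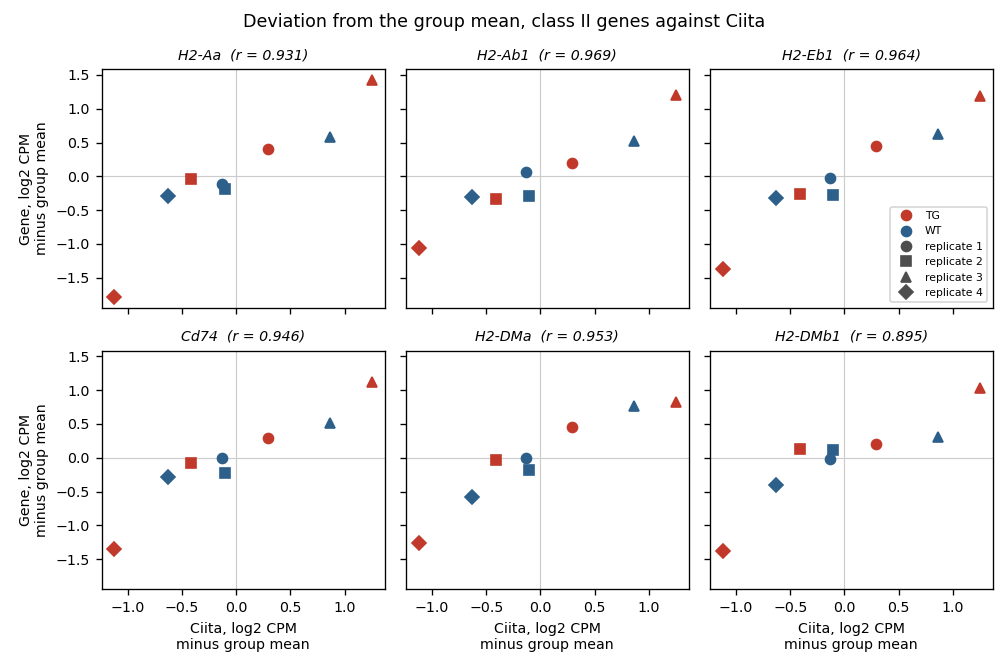
Deviation of log2 CPM from the group mean for 6 class II genes (vertical axis) against that of Ciita (horizontal axis), 1 point per library, TG in red and WT in blue. TG 3 and WT 3 lie at the upper right and TG 4 at the lower left in every panel, and r runs from 0.895 (H2-DMb1) to 0.969 (H2-Ab1).

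Outside the family, the 5 genes with the most similar deviations to Ciita, among those with a mean log2 CPM of at least 3, were Ikbkg (r = 0.982), the regulatory subunit of the IKK complex, Ppat (0.960), an enzyme of purine synthesis, Irf1 (0.958), an interferon-induced transcription factor, Npat (0.953), a coactivator of histone genes, and Smpd4 (0.951), a sphingomyelinase. For Cd74 they were Nsmce4a (0.987), a subunit of the SMC5/6 complex, Irf1 (0.980), Ifitm3 (0.973), an interferon-induced membrane protein, Lypd8l (0.966) and Dmbt1 (0.955), a mucosal scavenger receptor. All are over 8 libraries and none passed the adjustment.
Irf1 was the 1 gene on both lists. Among these genes only Ifitm3 and Lypd8l were called lower in TG. Ifitm3 fell to a TG mean of 26.1 CPM against 90.9 CPM for WT (log2 fold change −1.79 ± 0.26, edgeR adjusted p = 0.00380), and Lypd8l fell to 29.9 against 58.1 CPM (−0.95 ± 0.25, adjusted p = 0.0335).

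Libraries were also split by Y-linked transcripts, a division the choice of genes did not use. The 4 Y-linked genes summed to 0 counts in replicates 1 and 2 of each group and to 897 to 1564 counts in replicates 3 and 4. None of the 7 class II genes was called between these classes in edgeR, where the log2 difference, libraries with over libraries without, was 0.03 to 0.50 and the adjusted p was 0.973 to 0.999. No member had an unadjusted p below 0.05, DESeq2 called 0 as well, and 0.176% of all tested genes were called. The TG over WT log2 difference of Cd74 was −1.82 where Y-linked counts were 0 and −1.85 where they were present, and that of Ciita was −1.95 and −1.77. The interaction was called for 0 of the 7 genes by edgeR and by DESeq2, with 0 at an unadjusted p below 0.05 and an edgeR adjusted p of 0.977 to 0.998 (0.0251% of all genes called). Its SE was 0.940 to 1.34 log2 units, so differences of that size between the classes, and ones well above it, were not detectable here. Both contrasts depended most on TG 3 and TG 4, the highest and the lowest TG library of the family, which form the TG class with Y-linked counts. The median class difference of the 7 genes, 0.34, was −0.19 without TG 3 and 0.64 without TG 4, with 0 and 2 genes at an unadjusted p below 0.05. The median interaction, 0.05, was −1.75 without TG 3 and 0.86 without TG 4, with 6 and 1 genes at an unadjusted p below 0.05. None of the 7 was called by edgeR in any of these fits. WT libraries moved the medians as well. Without WT 3 the class difference was 0.09 and the interaction 0.55, and without WT 4 they were 0.51 and −0.39.

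The wider pathway was read from 7 lists of 49 genes, of which 40 were tested, and 12 of these were lower and 1 was higher in TG (edgeR, adjusted p below 0.05). The background was 9.65% of all tested genes lower and 8.26% higher.
None of the factors on which Ciita docks was called between the groups. Of the 7 promoter factors (the RFX subunits Rfx5, Rfxap and Rfxank, Creb1, and the NF-Y subunits Nfya, Nfyb and Nfyc), 0 were called, and the median log2 fold change was 0.06. The most abundant was Nfyb, at 43.0 ± 4.17 CPM in TG and 39.4 ± 4.17 CPM in WT (SD, n = 4 each, log2 fold change 0.12 ± 0.10, edgeR adjusted p = 0.413).
Of the other class II chains, H2-Oa, H2-Ob and H2-Ea had 0 counts in all libraries, H2-Eb2 had 1 count in all, and none was tested.

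The route from interferon gamma to Ciita held 10 genes, all tested, of which 2 were called lower and 0 higher. Socs3, an inhibitor of cytokine receptor signalling, fell to 7.48 ± 1.12 CPM in TG against 38.5 ± 24.0 CPM in WT (SD, n = 4 each, log2 fold change −2.35 ± 0.53, edgeR adjusted p = 0.0305), but was no longer called without TG 1, TG 2, TG 3, TG 4 or WT 1, each left out alone (adjusted p 0.0628 to 0.0923). The receptor chains Ifngr1 and Ifngr2 and the kinases Jak1 and Jak2 were among those not called.
From library to library, the deviations of Irf1 followed those of Ciita (r = 0.958, n = 8), also without TG 3 and TG 4 (0.982). Other genes of this route did not follow Ciita in this way. For Jak2, Socs1, Ifngr1 and Socs3, r was 0.222, 0.0572, 0.0114 and 0.00168. For Ifngr2, Usf1, Irf2 and Jak1 it was −0.153, −0.220, −0.475 and −0.509. Irf1 itself stood at 45.6 ± 8.78 CPM in TG and 54.0 ± 4.94 CPM in WT (log2 fold change −0.24 ± 0.12, edgeR adjusted p = 0.193).

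Of 8 genes for the proteases and the reductase that prepare class II peptides, 3 were called lower and 0 higher. Lgmn, the endosomal asparaginyl endopeptidase, fell most, to 61.1 ± 13.9 CPM in TG against 179.8 ± 55.6 CPM for WT (log2 fold change −1.55 ± 0.24, edgeR adjusted p = 0.00479). The cathepsins Ctsz (−0.44 ± 0.10, adjusted p = 0.0109) and Ctsl (−0.62 ± 0.15, adjusted p = 0.0160) fell less, and Ctsl was not called without TG 2 (adjusted p = 0.0600). Ctss, the cathepsin that trims the invariant chain in antigen presenting cells, stood at 5.80 ± 1.65 CPM in TG and 5.86 ± 1.66 CPM in WT.
Among the regulators of class II turnover, Cd83, a membrane protein that keeps class II at the cell surface, went the other way. It rose to 26.5 ± 5.65 CPM in TG against 13.9 ± 4.74 CPM for WT (0.93 ± 0.23, adjusted p = 0.0208), a call that was lost without TG 1, TG 2 or WT 1, each left out alone (adjusted p 0.0552 to 0.0780). The ubiquitin ligase Marchf8 and the protease Sppl2a were not called, and Marchf1 had 0 counts.
Co-stimulatory molecules were scarce. Cd86 and Pdcd1lg2 had 0 counts in every library, Cd80 and Cd40 were below the filter, and the most abundant, Icosl, stood at 2.98 ± 0.415 CPM in TG and 2.30 ± 0.673 CPM in WT (0.39 ± 0.25, edgeR adjusted p = 0.294). Of the 2 tested, 0 were called.

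MHC class I presents peptides made by the proteasome to CD8 T cells, and its genes were the list with the most calls. Of 10 genes, 7 were called lower and 0 higher, with a median log2 fold change of −0.57. The heavy chains H2-K1 and H2-D1 fell by 0.60 and 0.70 on the log2 scale (edgeR adjusted p = 0.00195 and 0.00111), and their light chain B2m fell by 0.43 (adjusted p = 0.00362).
The immunoproteasome subunits fell as well, Psmb8 with a log2 fold change of −1.33 ± 0.26 (edgeR adjusted p = 0.00935), Psmb9 with −0.86 ± 0.27 (0.0474) and Psmb10 with −0.54 ± 0.12 (0.00997). So did the peptide transporter subunit Tap2 (−0.52 ± 0.15, adjusted p = 0.0246). The calls of Psmb9 and Tap2 were fragile. Psmb9 was not called without TG 1, TG 2, TG 4, WT 1, WT 2 or WT 3, each left out alone (adjusted p 0.0555 to 0.130), and Tap2 was not called without TG 1, TG 2, TG 4, WT 1 or WT 3 (0.0504 to 0.0749).
Nlrc5, the class I counterpart of Ciita, stood at 1.21 ± 0.606 CPM in TG and 2.99 ± 1.60 CPM in WT (−1.28 ± 0.44, edgeR adjusted p = 0.0614), and Tap1 and Tapbp were not called either. The deviations of Psmb9, Tap1, Psmb8 and Nlrc5 followed Ciita with r = 0.939, 0.891, 0.843 and 0.840 over the 8 libraries. Those of the abundant chains H2-K1, H2-D1 and B2m did so with r = 0.205, 0.408 and 0.495.

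**Figure D3:**
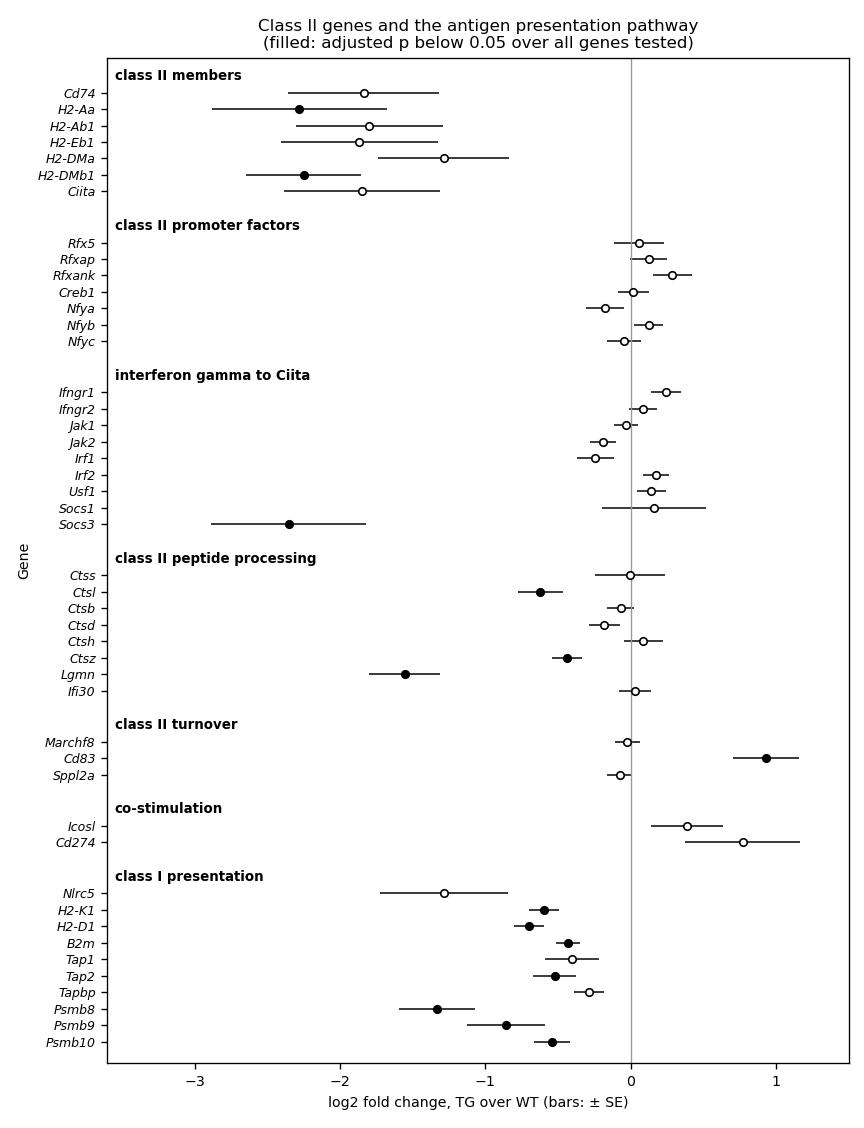
Log2 fold change, TG over WT, with bars of ± SE for the 7 tested class II genes and the tested genes of the pathway lists, of which 1 is not drawn; filled points passed an adjusted p of 0.05 over all genes tested. The promoter factors lie close to 0, the class II genes between −2.28 and −1.29, and all 10 class I genes below 0.

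The class II genes on chromosome 17 share their region with other genes. Within 200 kb on either side of the span from H2-DMa to H2-Eb1 (bases 34138515 to 34735648, GRCm39), a window chosen after the data were seen, 23 genes that are not in the family were tested. Of these, 4 were lower, all of them class I pathway genes (H2-K1, Psmb8, Psmb9 and Tap2), and 2 were higher, the butyrophilin-like genes Btnl1 (0.85, edgeR adjusted p = 0.0162) and Btnl4 (0.54, adjusted p = 0.0141). Their median log2 fold change was 0.04. Ciita and Cd74, with fold changes like those of the chains, lie on other chromosomes.

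Cells other than Paneth cells could carry class II RNA, and their markers were therefore read in the same libraries. The Paneth markers Lyz1, Mmp7, Itln1, Ang4, Defa24 and Mptx2 together made up 333623 to 420202 CPM in TG and 315884 to 467760 CPM in WT. Of these 6, Mmp7, Ang4 and Mptx2 were lower in TG and the other 3 were not called. The deviations of the Paneth sum had r = −0.665 with those of Ciita over the 8 libraries.
The markers of immune cells were at or near 0. Over 27 markers of leukocytes, dendritic cells, macrophages, B, plasma and T cells, the summed level was 1.55 to 3.16 CPM in TG and 1.07 to 2.64 CPM in WT, and 9 of the 27 had 0 counts in every library. Flt3, Xcr1, Clec9a, Adgre1 and Csf1r were among those 9. The leukocyte markers, Ptprc and 5 others, had 2 to 17 counts per TG library, most in TG 3, and 2 to 8 per WT library. Over the 8 libraries, the deviations of the leukocyte sum correlated with those of Ciita at r = 0.609, of the dendritic cell and macrophage sum at 0.0511, of the B and plasma cell sum at −0.736 and of all 27 markers at 0.0882. These sums rest on few counts, and their part in the class II values was not tested.

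Enteroendocrine markers moved with class II. The sum of Chga, Chgb and Neurod1 was 1.06, 2.81, 9.42 and 0.456 CPM in TG 1 to TG 4 and 9.98, 6.40, 32.6 and 5.35 CPM in WT 1 to WT 4, highest in TG 3 and WT 3 and lowest in TG 4. Its deviations followed those of Ciita with r = 0.863 over the 8 libraries, and those of Chgb alone with r = 0.926, or 0.783 without TG 3 and TG 4. For Chga alone, r was 0.711, or 0.426 without TG 3 and TG 4. The log2 fold change was −1.66 ± 1.04 for Chga (edgeR adjusted p = 0.316) and −2.04 ± 0.98 for Chgb (adjusted p = 0.208). Neither was called, as was also the case for most of the class II genes. The part of these cells in the class II values was not tested.
Enterocyte markers were higher in TG. The sum of 11 markers was 521.9 to 688.7 CPM in TG and 354.1 to 454.8 CPM in WT with no overlap, and 5 of the 11 were called higher in TG (edgeR). The deviations of the sum had r = −0.677 with those of Ciita, but that of the abundant Anpep was −0.789 while the other markers lay between −0.377 and 0.656, and 5 of the 11 were positive. Of the stem cell markers, 1 of 5 was lower (Smoc2) and 1 higher (Axin2), and 0 of 5 goblet and 0 of 3 tuft cell markers were called. The sums of the latter had r of 0.423, −0.0971 and 0.208 with Ciita. Their part was not tested either.

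**Figure D4:**
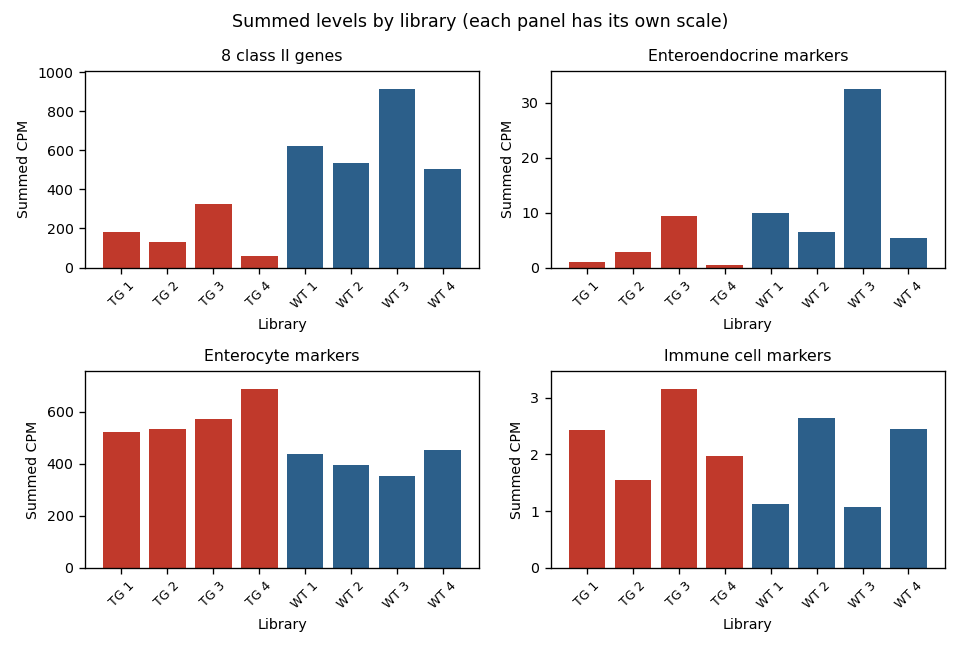
Summed CPM per library of the 8 class II genes, 3 enteroendocrine markers, 11 enterocyte markers and 27 immune cell markers, with TG in red and WT in blue, each panel on its own axis from 0. Class II and the enteroendocrine markers peak in TG 3 and WT 3 within their groups, the enterocyte markers are higher in every TG library, and the immune markers stay below 3.2 CPM with overlapping groups.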

How the data were processed

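RNA of sorted Paneth cells was measured by sequencing in 8 libraries, 4 TG and 4 WT, grouped by the labels. The deposited file is 1 table of raw counts, whole numbers for each gene in each library, made by the authors. The submitters' processing notes name FastQC 0.12.0, STAR 2.7.0a, DESeq2 and the build mm39. The counting tool, the handling of reads with several alignments and strand, and the annotation behind the table are given in none of the sources used here. The table has no normalized columns, and all of its 8 sample columns were used.

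Gene IDs were matched to GENCODE M39 on GRCm39 (54749 of 55414, with 665 unmatched). Libraries of a group were checked for duplicates, and the chi-square per degree of freedom was never below 5.20. Counts were fitted with edgeR 4.0.16 in R 4.3.3 (TMM, default filter by group, robust quasi-likelihood, group as the only term), with Benjamini-Hochberg adjustment over 11929 genes at 0.05, and the fit was tested on simulated data. DESeq2 1.42.0 was an alternative. The SE is the log2 fold change over the square root of F. Log2 CPM for deviations used a prior count of 2. Promoters were read from a RefSeq table for GRCm38.p6, whose coordinates differ from those of GRCm39.

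The genes, the lists and the tests were chosen with earlier results of these data known. Named genes are the 8 genes, every called gene of the pathway lists (or the most abundant of a list without calls), and the 5 genes most like Ciita and Cd74. Others, such as Nlrc5, Irf1 and the marker genes, were named after their values were seen. Some listed genes are not reported here, and 1 listed marker was left out of the immune sum after its level had been seen. Other scalings, filters, a replicate block, a Y-linked term and leaving out each library were tried.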

Additional observations from a re-analysis of the deposited data

Results flagged for a closer look

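In 15 groups of 4 CPM values, the lowest or highest library was compared with its neighbours by Dixon's ratio of the gap to the whole range. H2-Aa in WT passed the 95% critical value, with WT 3 at 112.4 CPM and the others of its group at 61.1 to 69.1 CPM, a ratio of 0.843. Chance alone passes about 1 in 20 groups, or 0.75 of 15. WT 3 was also the highest library of the family for Cd74, H2-Ab1, H2-Eb1, H2-DMa, H2-DMb1 and Ciita.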

How the results depend on the processing

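The 7 tested class II genes were lower in TG under all 19 alternatives, from −2.30 to −1.35 on the log2 scale for Cd74, −2.46 to −1.20 for Ciita, −2.69 to −1.86 for H2-DMb1 and −1.60 to −0.69 for H2-DMa. Each was lowest without TG 3 and highest without both TG 4 and WT 3, an alternative chosen after seeing the data. The number called, 2, was 7 with DESeq2, 1 with total counts as the only scaling, 1 without a filter on low counts, 1 with the Y-linked class as a term, 7 within the libraries without Y-linked counts, 0 within those with them (0 at an unadjusted p below 0.05) and 1 to 6 with single libraries left out. The cause was not tested. Of the pathway genes, 13 were called. This was 7 with total counts, 1 within the libraries with Y-linked counts and 8 to 14 with single libraries left out, lowest without TG 2. With total counts the median over all genes tested moved from 0.01 to 0.12, and the calls over all genes were 787 higher and 263 lower in place of 985 and 1151. Ctsz, B2m, Tap2, Psmb9 and Psmb10 were among those no longer called and kept their direction.

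A fit with the replicate number as a block (replicate block) called 7 of the class II genes, and the median r with Ciita, 0.949, became 0.842. Same-numbered libraries of the 2 groups correlated at 0.08, 0.07, 0.29 and 0.23, so the numbers were not taken to pair them. However, 5 of 8 libraries correlated best with their own number, and 5 of the 7 genes had 1 order of replicates in both groups. For all 7, replicate 3 was the highest and replicate 4 the lowest library of both groups. If same-numbered libraries share a feature, the permutation within groups wrongly treats them as independent and its p-values are too small. The median correlation with Ciita was 0.9 by Spearman's rho and 0.915 to 0.965 with single libraries left out. Ciita (14 to 283 counts) and H2-DMb2 (5 counts in all) are limited by depth.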
